A study of Mus musculus with 50 samples.

Results

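Chromatin accessibility was compared between kidneys of old and young mice by ATAC-seq, an assay in which the Tn5 transposase cuts and tags open DNA. All 6 kidney ATAC libraries among the 50 samples of the series were used, 3 from young mice and 3 from old mice. Both groups were untreated C57BL/6 mice, 2.5 months old in the young group and 23 to 25 months old in the old group, and the study's methods describe female animals and nuclei from frozen kidney tissue. Kidney tissue holds many cell types, so fewer cells of a type and less open chromatin per cell cannot be told apart here. The sources used here do not say that the 3 libraries of a group came from separate animals, and p-values then measure only the spread between these samples. Each library gave 1 list of peaks called on that library alone. A peak is an interval where sequenced ends pile up, with 1 or more summits, and the strength of a summit is its fold enrichment, the pileup there over the local background. Equal intervals were taken once. The background level in the lists put the depth at 41.2 to 57.3 M read ends per library (M, mega, as in Mb), with the groups overlapping.

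Open promoters carry short motifs that transcription factors read. NF-Y binds the CCAAT box, which lies just upstream of many start sites of widely expressed genes. AP-1, made of JUN and FOS family proteins, binds enhancers that open in stress and inflammation, and PU.1 is the ETS family factor of myeloid and B cells. HNF1 and HNF4 are factors of tubule epithelium, and CTCF marks insulators and chromatin loop anchors. A promoter peak is taken below as one whose strongest summit lies within 1 kb of an annotated start site.

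The promoters with the smallest p-values among those stronger in the old kidney share a visible feature, the CCAAT box. The reference sequence at 6 of them is printed here 5′ to 3′ along the gene, from GRCm38 (mm10), with CCAAT or its reverse complement ATTGG in capitals. They are the stretches outside annotated exons within 100 bp of the summit, at chr11:29247410-29247512 (minus strand), chr9:37208068-37208222 (plus), chr13:4609175-4609333 (minus), chr2:105904565-105904637 (minus), chr6:142387088-142387214 (minus) and chr11:40733488-40733666 (plus).
Cfap36: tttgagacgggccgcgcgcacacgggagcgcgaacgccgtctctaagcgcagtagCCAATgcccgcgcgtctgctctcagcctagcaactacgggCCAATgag
Tmem218: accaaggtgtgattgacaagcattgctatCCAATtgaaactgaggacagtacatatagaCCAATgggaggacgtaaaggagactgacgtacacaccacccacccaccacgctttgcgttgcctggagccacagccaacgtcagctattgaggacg
Akr1e1: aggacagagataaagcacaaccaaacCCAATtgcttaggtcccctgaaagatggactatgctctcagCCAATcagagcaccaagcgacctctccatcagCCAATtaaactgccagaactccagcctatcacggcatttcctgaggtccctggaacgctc
Elp4: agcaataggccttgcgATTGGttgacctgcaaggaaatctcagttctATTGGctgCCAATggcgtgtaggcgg
Recql: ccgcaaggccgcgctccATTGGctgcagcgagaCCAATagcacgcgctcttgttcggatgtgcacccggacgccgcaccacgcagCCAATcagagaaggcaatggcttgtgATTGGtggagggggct
Nudcd2: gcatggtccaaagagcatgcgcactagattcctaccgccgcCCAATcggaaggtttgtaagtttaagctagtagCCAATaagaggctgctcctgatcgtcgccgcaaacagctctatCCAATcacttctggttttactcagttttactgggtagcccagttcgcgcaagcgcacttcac
For contrast, 2 regions weaker in the old kidney are shown, with any of the 14 motif cores searched in capitals. They are the promoter of Chgb at chr2:132781783-132781896 (plus strand) and an intronic stretch at chr13:9064271-9064471 (plus strand of the genome). The second is named by its nearest coding gene, Larp4b, whose start site is 29510 bp away, and is not placed in an intron of that gene. The Chgb stretch holds none, though a CTCF core lies within 100 bp of the summit in the exon left out, and the Larp4b stretch holds an AP-1 core and an HNF1 core.
Chgb: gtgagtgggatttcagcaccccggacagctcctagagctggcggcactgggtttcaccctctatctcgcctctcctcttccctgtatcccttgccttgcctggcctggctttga
Larp4b: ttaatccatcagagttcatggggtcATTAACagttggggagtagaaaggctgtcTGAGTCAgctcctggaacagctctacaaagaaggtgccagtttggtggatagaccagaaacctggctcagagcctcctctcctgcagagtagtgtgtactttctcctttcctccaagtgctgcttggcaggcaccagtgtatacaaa

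Old kidney gave fewer peaks in each library than young kidney. The young libraries held 115836, 128395 and 124753 distinct peaks and the old libraries 108970, 93072 and 104422. The groups did not overlap (exact two-sided permutation test, p = 0.1, the smallest that 3 against 3 allows). The library with the fewest peaks, old replicate 2, was also the deepest, at 57.3 M read ends. The depth was 41.2, 43.8 and 50 M read ends in the young libraries and 41.9, 57.3 and 45.7 M in the old libraries (exact permutation p = 0.600). Divided by the depth, the numbers were 2812, 2933 and 2498 peaks for each M read ends in the young libraries and 2599, 1623 and 2286 in the old libraries, where young replicate 3 and old replicate 1 crossed (exact permutation p = 0.2). Shares and medians over the peaks of a library were taken at equal numbers, the 93072 peaks with the highest −log10 p, unless another number is given. Shared regions and summits at marker genes were taken from all peaks. The weakest peak kept had a −log10 p of 4.23, 4.19 and 3.84 in the young libraries and 3.11, 2.0 and 3.25 in the old libraries, so equal numbers reached to weaker peaks in old kidney.

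At equal numbers, width and strength of peaks overlapped between the ages. The median width was 389, 378 and 345 bp in the young libraries and 338, 318 and 348 bp in the old libraries. Young replicate 3 lay inside the old range, and the means differed by -36.0 bp (old minus young, exact permutation p = 0.2). The median fold enrichment was 4.11, 3.91 and 3.48 in the young libraries and 3.27, 3.17 and 3.57 in the old libraries. Here again young replicate 3 and old replicate 3 crossed, with a difference of -0.494 (exact permutation p = 0.2). The length covered by these peaks was 46.0, 44.4 and 41.1 Mb in the young libraries and 41.0, 38.1 and 41.8 Mb in the old libraries (exact permutation p = 0.2). When every peak was used, the peaks covered 52.5, 54.2 and 49.3 Mb of the genome in the young libraries and 45.5, 38.1 and 44.9 Mb in the old libraries, without overlap (exact permutation p = 0.1). Peaks wider than 1 kb made up 7.94, 6.79 and 5.39% of the young top peaks and 5.96, 4.19 and 6.01% of the old top peaks, which overlapped.

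Genomic placement separated the ages among the strongest peaks and did not over all 93072. Over all of them, promoter peaks made up 23.8, 24 and 24.8% in the young libraries and 23.3, 25.9 and 24.5% in the old libraries (difference 0.381 percentage points, exact permutation p = 0.7). None of 7 classes of placement and distance separated the groups at that number. Among the 20000 strongest peaks of each library, the promoter share was 48.7, 50.2 and 49.6% in the young libraries and 54.0, 54.5 and 55.7% in the old libraries. The old values all lay above the young values, by 5.25 percentage points on average (exact permutation p = 0.1). Introns gave way by 3.09 points, intergenic sequence by 1.83 points and exons outside promoters by 0.330 points, and all 7 classes separated the groups. The median GC content within 100 bp of the summit moved the same way, at 56.2, 56.7 and 56.7% in the young libraries and 57.2, 57.7 and 58.2% in the old libraries.

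**Figure D1:**
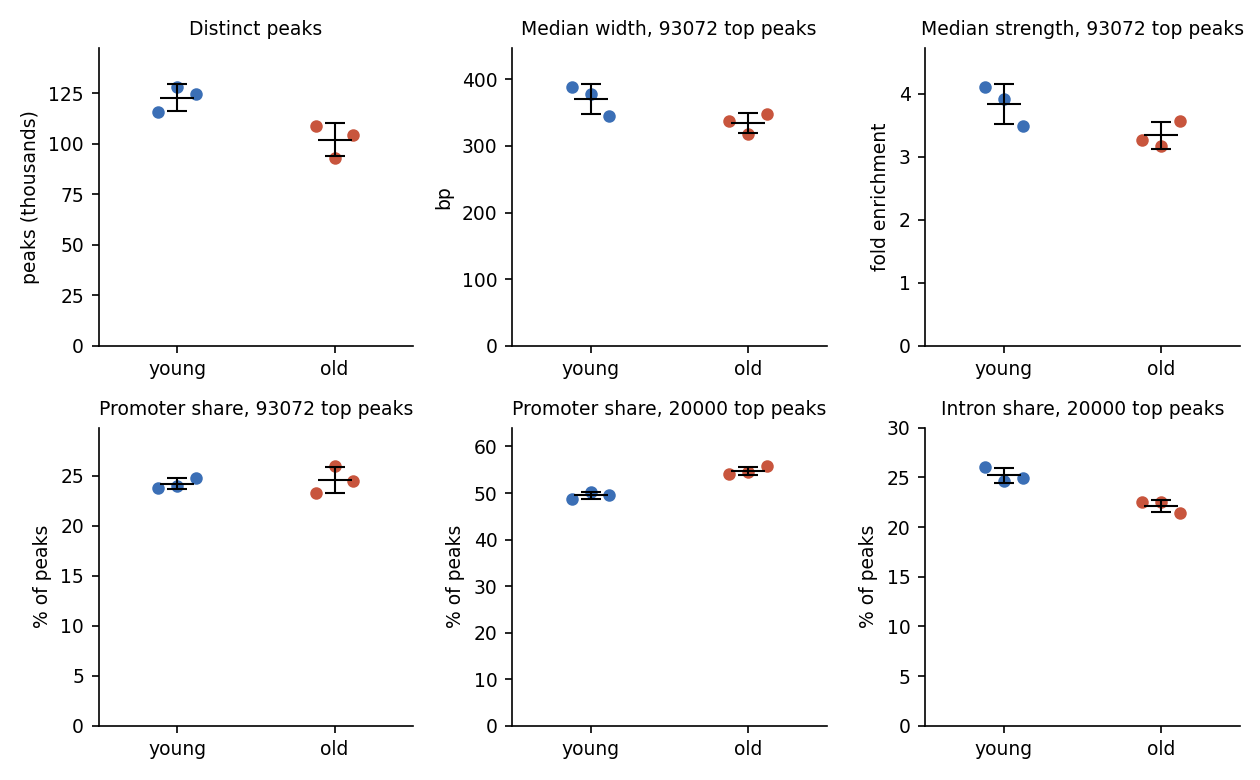
Peak measures of the 3 young (blue) and 3 old (red) kidney libraries, each point a library, with the group mean and SD as bars; the vertical axes start at 0 and give the number of peaks, bp, fold enrichment or percent. The groups separate in the number of peaks and in the promoter and intron shares of the 20000 strongest peaks, and overlap in width, strength and promoter share at 93072 peaks.

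The same shares were taken at the top of the lists. Of the 2500 strongest peaks, 78.9, 81.8 and 79.7% were at promoters in the young libraries and 92.0, 91.2 and 94.1% in the old libraries. The NF-Y core CCAATNA stood within 100 bp of the summit in 9.12, 10.8 and 7.96% of these peaks in the young libraries. In the old libraries the same core was in 27.2, 23.2 and 27.0%. Counting promoter peaks alone, the shares were 10.2, 12.1 and 8.73% in the young libraries and 28.4, 24.5 and 27.9% in the old libraries. The AP-1 core TGANTCA went the other way at this depth of the list, with 3.68, 3.28 and 3.20% in the young libraries and 2.60, 2.56 and 2.44% in the old libraries.

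**Figure D2:**
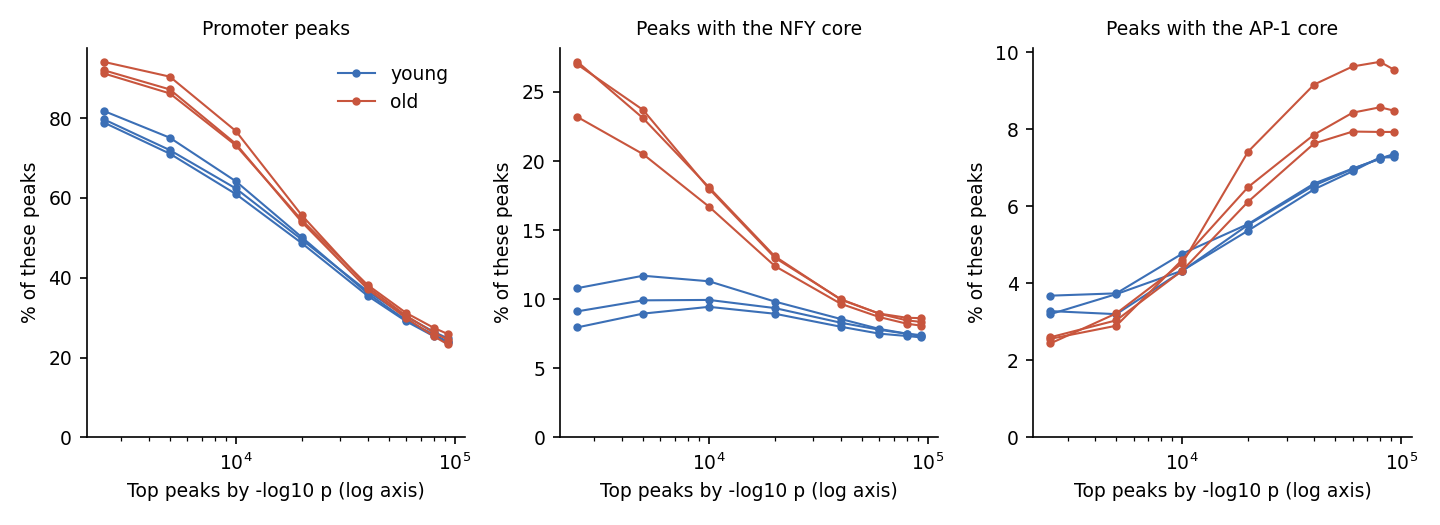
Share of peaks at promoters, with the NF-Y core and with the AP-1 core (percent, vertical axes from 0) among the strongest peaks of each library, from 2500 to 93072 peaks (log axis); blue lines are the 3 young and red lines the 3 old libraries. Among the 2500 strongest peaks, old libraries hold 91.2 to 94.1% at promoters and 23.2 to 27.2% with the NF-Y core, against 78.9 to 81.8% and 7.96 to 10.8% in young libraries, and the AP-1 shares of old libraries lie above the young ones from 20000 peaks on and below them at 2500.

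At equal numbers of peaks, 10 of 14 motif cores gave shares whose groups did not overlap. Cores were searched on both strands within 100 bp of the strongest summit, and each of the 10 had an exact permutation p = 0.1, which became 0.140 after Benjamini-Hochberg adjustment over 14 cores. The AP-1 core was in 7.35, 7.36 and 7.27% of the young top peaks and in 7.93, 8.48 and 9.54% of the old top peaks. The PU.1 core GAGGAAGT was in 2.36, 2.59 and 2.39% of the young and 2.96, 3.03 and 3.61% of the old peaks. The NF-Y core was in 7.34, 7.4 and 7.24% of the young and 8.63, 8.09 and 8.36% of the old peaks. The CRE core TGACGTCA of CREB and ATF factors was in 0.498 ± 0.0254% of young and 0.682 ± 0.0471% of old peaks (SD, n = 3 each), and the NF-kB core GGGANTTCC in 1.02 ± 0.000620% and 1.20 ± 0.0660%. Old replicate 3 had the highest AP-1, PU.1, CRE and NF-kB shares of the 6 libraries.

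Cores of epithelial factors and CTCF stood on the other side. The HNF1 core GTTAAT was in 10.3, 9.47 and 8.82% of the young and 8.44, 8.70 and 8.52% of the old top peaks, and the HNF4 core CAAAGTCCA in 1.52, 1.22 and 1.19% of the young and 0.970, 1.17 and 1.05% of the old top peaks. The CTCF core CNAGNNGGC was in 19.0, 19.3 and 19.1% of the young and 17.1, 17.9 and 17.7% of the old peaks. The ERR core TCAAGGTCA differed by -0.0483 points and the TFAP2 core GCCNNNGGC by -0.577 points. At 93072 peaks the GC box GGGCGGGG, NRF1 core GCGCATGC, YY1 core AAGATGGCG and TEAD core GGAATG overlapped between the groups. The number of peaks taken changed several of these. Over all peaks and among the 20000 strongest, the HNF1, HNF4, CTCF and TFAP2 shares overlapped, as did ERR at 20000, while the GC box, NRF1 and YY1 shares were all higher in the old libraries (GC box by 2.41 points at 20000 and by 0.213 at 93072). Without young replicate 1 the HNF1 difference was -0.593 (from -0.983) and the HNF4 difference -0.140 (from -0.247), without old replicate 1 the TFAP2 difference was -0.328 (from -0.577), and without old replicate 3 the AP-1 difference was 0.879 (from 1.32).

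**Figure D3:**
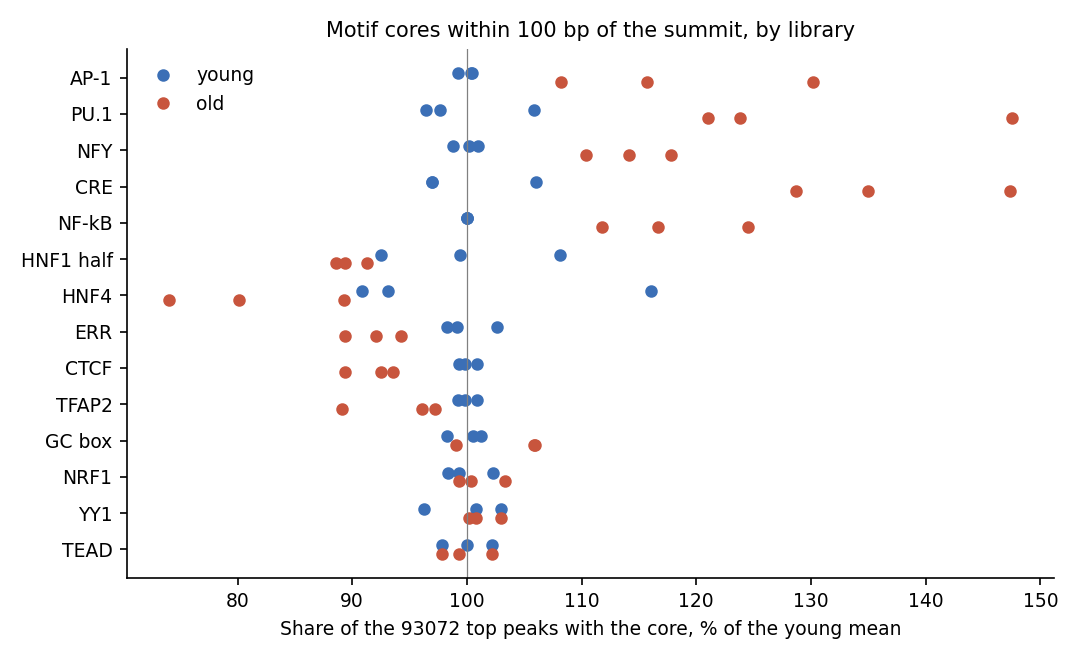
Share of the 93072 top peaks of each library that hold a motif core within 100 bp of the summit, as a percent of the mean of the young libraries (horizontal axis, not from 0); blue points are the 3 young and red points the 3 old libraries. The shares of AP-1, PU.1, NFY, CRE and NF-kB in the old libraries lie above all young libraries, those of HNF1, HNF4, ERR, CTCF and TFAP2 below, and the other 4 overlap.

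The libraries of one age were not all alike in which peaks they held. As a share of the combined top intervals of a pair of libraries, the shared part (Jaccard index) was 0.512 to 0.541 between young libraries, 0.443 to 0.482 between old libraries and 0.434 to 0.480 between ages. Old libraries therefore shared peaks with each other about as often as with young ones. Strength in shared regions separated the ages more clearly: the correlation of log2 fold enrichment across regions was 0.809 to 0.833 within young, 0.806 to 0.831 within old and 0.699 to 0.771 between ages. These are correlations over regions, which are not independent replicates.

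Merging the peaks of all 6 libraries gave 255698 regions, of which 45429 (17.8%) held a peak in every library. These shared regions, 15826 at promoters and 29603 over 1 kb from any start site, allow summit strength to be compared where a peak was present at both ages. The median log2 fold enrichment over them was 2.55, 2.48 and 2.28 in the young libraries and 2.17, 2.17 and 2.32 in the old libraries. Strength was therefore first set relative to the median of its own library, and 2546 regions (5.60%) were then stronger in old kidney and 843 (1.86%) weaker (limma, Benjamini-Hochberg adjusted p under 0.05). The young and old libraries did not overlap in 18.3% of regions with higher old values and 8.39% with lower old values. Without that centring, which moved the median difference from -0.15 to 0.06, 343 (0.755%) were stronger and 1715 (3.78%) weaker, so the balance of stronger against weaker rests on the scaling. Without old replicate 3 the counts were 870 and 358, without young replicate 1 they were 1414 and 384, without old replicate 1 1620 were stronger, and without young replicates 2 and 3 in turn 460 and 521 were weaker. What follows compares classes of regions within the same libraries. Called shares are centred unless said otherwise.

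Regions called stronger in old kidney were for the most part promoters, 2137 of 2546 with centring and 301 of 343 without. Of the 15826 shared promoter regions 13.5% were stronger and 0.575% weaker, with a median log2 difference of 0.21. Without centring 301 (1.90%) were stronger and 214 (1.35%) weaker, with a median of -0.01, and with recovered pileup scaled to depth and not centred 108 were stronger and 261 weaker. Of the 29603 regions over 1 kb away 1.38% were stronger and 2.54% weaker, with a median of -0.01 (-0.23 without centring). This lean turned with centred pileup, where 1225 were stronger and 508 weaker, with a median of 0.02. In each library the median log2 strength of promoters exceeded that of the regions over 1 kb away by 0.27, 0.34 and 0.34 in young and 0.55, 0.54 and 0.60 in old kidney. This contrast does not depend on the scaling between libraries, and the groups did not overlap (exact permutation p = 0.1). Taken within 5 bands of GC content, the mean gap was 0.161 for the young libraries (SD 0.0161, n = 3) and 0.338 for the old ones (SD 0.0252, n = 3), again without overlap. Promoters shared by divergent genes, which start 2 genes in opposite directions, numbered 1105, and 27.2% of them were stronger against 12.5% of the others (45 of 1105 and 256 of 14721 without centring).

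The NF-Y core was in 13.4% of shared promoters and 6.75% of shared regions over 1 kb away. Of the 2121 shared promoters with CCAATNA, 951 (44.8%) were stronger in old kidney and 5 were weaker, with a median log2 difference of 0.51 (0.29 without centring). Of the 13705 without it, 1186 (8.65%) were stronger, with a median of 0.17 (-0.04 without centring). Uncentred, 210 of the first and 91 of the second set were called stronger and 11 and 203 weaker. In each library the median of promoters with CCAATNA exceeded that of other promoters by 0.0930, 0.141 and 0.0690 in young and by 0.502, 0.433 and 0.496 in old kidney, on the log2 scale. The groups did not overlap, and the age difference of 0.376 was larger than the spread within either age (exact permutation p = 0.1). Of the regions with this core over 1 kb from a start site, 3.91% were stronger and 2.15% weaker, with a median of 0.04. Without centring the balance and the sign turned, with 17 stronger, 81 weaker and a median of -0.18.

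The contrast was also seen among promoters of like GC content. In the 5 bands of GC content, from low to high, 19.3, 36.0, 45.4, 52.1 and 43.9% of promoters with CCAATNA were stronger, against 2.50, 4.12, 4.59, 11.7 and 9.30% of those without. Taken within bands, the mean gap between both kinds of promoter was 0.183 for the young libraries (SD 0.0469, n = 3) and 0.513 for the old ones (SD 0.0511, n = 3). With the smooth trend of the difference on GC content removed, the medians were 0.38 with the core and 0.03 without.

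The share of stronger promoters followed the number of CCAAT boxes, a count added after the first results were seen. Counting the pentamer CCAAT on either strand within 100 bp of the summit, 5.01% of the 11148 promoters with none were stronger, 21.7% of the 3188 with 1, 53.1% of the 1048 with 2 and 74.7% of those with 3 or more. The median log2 differences were 0.15, 0.32, 0.57 and 0.72, or -0.07, 0.10, 0.36 and 0.50 without centring. The median strength of promoters with 3 or more, relative to the library median, was 0.21, 0.30 and 0.23 in the young libraries and 1.0, 0.92 and 1.04 in the old libraries. In the young libraries the medians lay between 0.15 and 0.34 at any number of boxes. Of all stronger promoters 73.9% held at least 1 CCAAT, against 29.6% of all shared promoters and 18.7% of the 91 weaker ones. The CCAATNA cores of stronger promoters lay at a median of -65 bp from the start site, and 72.3% of them within 150 bp upstream of it, where 66.6% of the cores at promoters that passed in neither direction also lay.

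**Figure D4:**
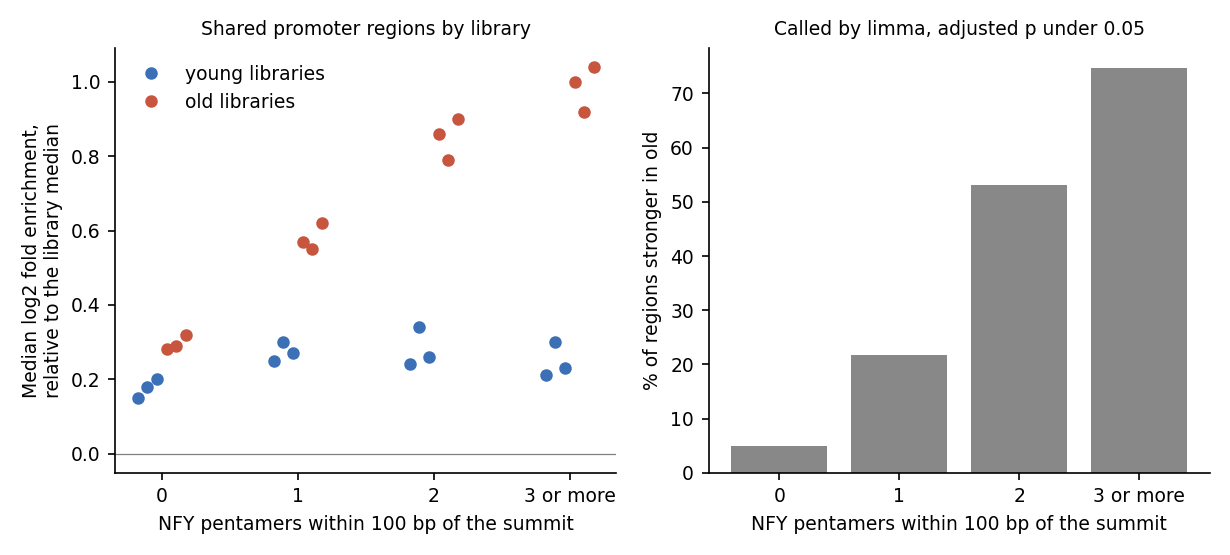
Left, median log2 fold enrichment of shared promoter regions relative to the median of the library (vertical axis), by the number of NFY pentamers within 100 bp of the summit, for each young (blue) and old (red) library. Right, percent of these regions stronger in old kidney (limma, adjusted p under 0.05), from 5.01% with none to 74.7% with 3 or more.

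The other cores at promoters gave smaller shares. Of 363 promoters with the CRE core, 24.2% were stronger and none weaker, with a median of 0.40 (0.19 without centring, where 10 were stronger). Promoters with the YY1 core were stronger in 19.0% of 300, those with the NF-kB core in 17.8% of 264, those with the PU.1 core in 15.6% of 334 and those with the GC box in 15.6% of 4120. The AP-1 core went with 10.1% of 626 and the HNF1 core with 5.82% of 619, both under the 13.5% of all shared promoters. Without centring, where 1.90% of all shared promoters were stronger, this order changed: 12 of 626 with the AP-1 core and 68 of 4120 with the GC box were stronger, the first no longer under that share and the second now under it. The HNF1 core then went with 6 stronger and 16 weaker promoters, and the YY1, NF-kB and PU.1 cores with 12, 6 and 10 stronger ones.

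Cfap36, which encodes a cilia and flagella associated protein, had the smallest p of the stronger promoters. Its fold enrichment, as deposited, was 6.82, 7.82 and 6.15 in the young libraries and 13.75, 13 and 16.12 in the old libraries. No old library came near the young range, and the difference was 1.26 ± 0.13 on the log2 scale (SE, limma, adjusted p = 0.000244). Recql, a DNA helicase, rose from 6.53, 5.90 and 5.70 to 11.51, 11.19 and 14.59 (log2 difference 1.25, limma adjusted p = 0.000244). Tmem218, a ciliary membrane protein, had 7.87, 9.27 and 6.45 in young and 17.01, 14.0 and 16.15 in old libraries. In these promoters the groups were apart by more than the range within either age. Elp4, a subunit of the Elongator complex that modifies transfer RNA, had 8.35, 10.93 and 8.88 against 17.75, 15.55 and 17.97. Akr1e1, an aldo-keto reductase, Nudcd2, a cochaperone, Med30, a subunit of Mediator, and Dcbld2, a membrane receptor, differed by 1.03, 1.24, 1.06 and 0.90. All 8 held CCAAT, and all 8 stayed stronger without centring, with limma adjusted p of 0.00376 to 0.0133. With recovered pileup scaled to depth and not centred, Akr1e1 and Dcbld2 no longer passed, and with centred pileup both did.

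With centring, 91 promoters were weaker. Chgb, a granin of secretory granules, had 20.72, 16.9 and 13.24 in the young libraries and 4.92, 7.01 and 7.82 in the old libraries. The summit lies 518 bp from the start site, and the difference was -1.15 ± 0.15 on the log2 scale (SE, limma, adjusted p = 0.000423). Foxp1, a forkhead transcription factor, had 16.75, 12.36 and 13.65 against 7.69, 6.28 and 6.72. Old values were below every young value in both. Rhou fell from 10.69, 12.89 and 13.08 to 6.20, 5.05 and 5.27 (log2 difference -0.93, limma adjusted p = 0.00291). Rims1, Rerg, Siah3, Angptl1 and Rps6ka2 followed with log2 differences of -1.16, -0.69, -0.93, -0.98 and -1.15. Angptl1 lost its call without young replicate 1 and Rps6ka2 without old replicate 3, and the other 6 kept theirs in every setting in which they could be tested.

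**Figure D5:**
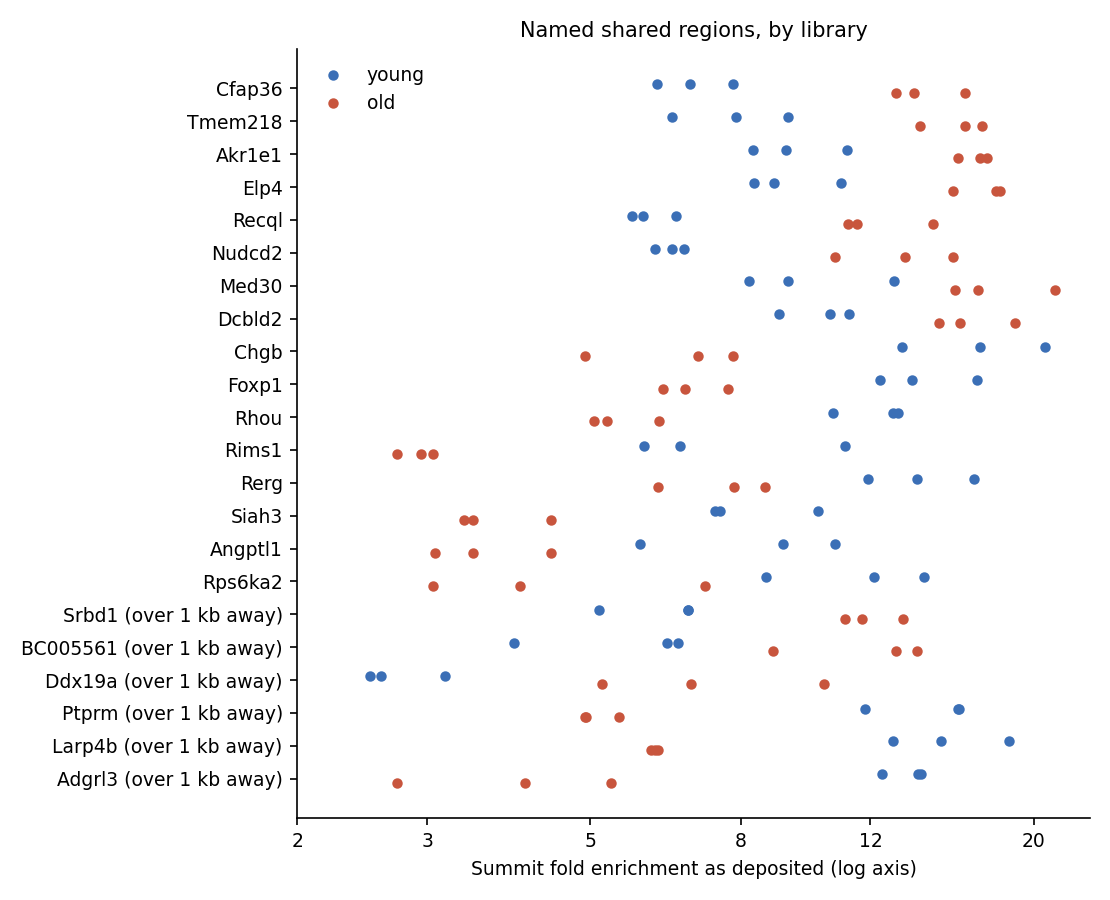
Fold enrichment at the strongest summit, as deposited (log axis), of the named shared regions in each young (blue) and old (red) library. Old libraries lie above all young ones in the 8 stronger promoters and 3 stronger regions over 1 kb away, and below all young ones in the others.

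Away from promoters, 409 shared regions were stronger and 752 weaker in old kidney (42, or 0.142%, and 1501, or 5.07%, without centring), a balance that turned to 1225 and 508 with centred pileup. The shares of cores below are over the centred calls. The AP-1 core was in 20.5% of the stronger regions, 5.19% of the weaker ones and 9.44% of all 29603. The PU.1 core was in 4.89% of the stronger and 1.46% of the weaker regions, against 2.83% of all. The HNF1 core was in 5.87% of the stronger and 15.0% of the weaker regions, and the CTCF core in 9.78% and 25.3%, against 13.2 and 21.1% of all. The NF-Y core was in 19.1% of the stronger regions, against 6.75% of all. In each library the median log2 strength of regions with the AP-1 core differed from that of regions without it by -0.10, -0.07 and -0.09 in young and 0.03, 0.04 and 0.11 in old kidney. For the PU.1 core the same contrast was -0.32, -0.23 and -0.24 in young and -0.06, -0.10 and -0.03 in old kidney. Both groups of values were apart (exact permutation p = 0.1 each), and both shifts were smaller than that of CCAATNA at promoters. The same contrast for the HNF1 core was 0.22, 0.14 and 0.09 in young and 0.08, 0.15 and 0.09 in old kidney (exact permutation p = 0.5). For the CTCF core it was 0.10, 0.13 and 0.16 against 0.11, 0.03 and 0.06 (exact permutation p = 0.2), and both overlapped between the ages. Most regions with these cores did not pass the test: 3.01% of the 2795 with the AP-1 core were stronger and 1.40% weaker, a balance that turned without centring, where 13 were stronger and 93 weaker.

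Single regions over 1 kb away differed as much as the named promoters. In an intronic region nearest to Ptprm, a receptor tyrosine phosphatase, the fold enrichment was 15.85, 15.8 and 11.79 in the young libraries and 5.47, 4.91 and 4.93 in the old libraries (log2 difference -1.28, limma adjusted p = 0.000244). In the region named by Larp4b, printed above, it was 18.51, 14.95 and 12.86 against 6.05, 6.17 and 6.12. An intronic region whose nearest coding gene is Adgrl3, an adhesion receptor, had 14.06, 13.91 and 12.46 against 2.73, 5.33 and 4.08. In all 3 the old libraries were below the young ones in every pair. Of the stronger regions, 1 lies 5922 bp from the start site of Srbd1 and had 6.78, 6.79 and 5.13 in young and 11.09, 11.7 and 13.28 in old libraries. Its sequence is a tandem repeat, 91.9% identical to itself at a shift of 52 bp, so reads from its copies may not be told apart. A region whose nearest coding gene is BC005561 differed by 1.31, and an exonic region nearest to Ddx19a, an RNA helicase, by 1.60.

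Regions with a peak at 1 age alone were described next. At equal numbers of top peaks, 1280 regions had a peak in every old and no young library and 2514 in every young and no old library. Promoters made up 15.9% of the first and 10.7% of the second set, against 36.4% of regions with a peak in all 6. The AP-1 core was in 18.9% of the old set, 6.36% of the young set and 7.35% of the regions in all 6 libraries. The PU.1 core was in 10.6, 1.39 and 2.40% and the HNF1 core in 5.16, 11.1 and 10.1% of these sets. The NF-Y core was in 8.05, 7.4 and 9.21% of them. Regions of both sets were weak, with a median strongest fold enrichment of 3.57 and 4.14, against 7.0 for regions in all 6.

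Marker genes were checked in both assays. Of 16 proximal tubule genes, 11 to 13 had a summit within 1 kb of a start site in each library at either age, and of 10 hepatocyte genes 4, 4 and 3 had one in the young and 2, 3 and 3 in the old libraries. Of these, Fga (8.97 to 10.9) had a peak in all 6 libraries, Fgb in 5 and Ttr in 2. The peak counted for Apoh, also in all 6 (5.13 to 8.19), lies 25 bp from a start site of Prkca, a protein kinase C gene, which was its nearest, and Alb, Apoa1, Ahsg, F2, Cyp3a11 and Serpina1a had none in any. Of 12 macrophage genes, 5, 7 and 5 had such a summit in the young libraries and 9, 7 and 10 in the old libraries. Over all peaks the groups thus met at 7. Among top peaks these numbers were 3, 2 and 2 in young and 9, 7 and 9 in old kidney. Equal numbers reached to weaker peaks in old kidney, so this cut took more weak summits out of the young lists and widened the gap. The values were low: Adgre1, the macrophage surface marker F4/80, had 2.82 in 1 young library and 2.55, 3.51 and 4.25 in the old ones. Cx3cr1, the fractalkine receptor gene, went the other way, with 2.22, 3.56 and 3.78 in the young libraries and 3.85 in 1 old library. The complement gene C1qa had no peak in young kidney and 3.31 and 3.11 in 2 old libraries, and the defining genes Csf1r and Cd68 had none in any library. The chemokine gene Ccl12 had no peak in the young libraries and 2.92, 3.08 and 4.76 in the old libraries. In separate kidney RNA libraries of the same ages, 4 a group, old replicate 2 stood apart, with hepatocyte genes summing to 3826 CPM (counts scaled to library size) against 154 to 218 in the other old and 116 to 181 in the young libraries. Over all 8 libraries, all 12 macrophage genes were higher in old kidney, with summed levels of 160.0 to 198 CPM in young and 770.1 to 1612 in old libraries. Of the B and plasma cell genes 11 of 12 and of the T and NK cell genes 9 of 11 tested were higher too, against 8.15% of all genes tested. In the ATAC libraries these lists held summits at 3, 2 and 3 and at 3, 3 and 4 of 12 genes in young and at 4, 3 and 2 and at 3, 2 and 3 in old kidney. Without old replicate 2, an alternative chosen after seeing the data, 12 of 12 macrophage, 10 of 11 B and plasma cell and 9 of 11 T and NK cell genes were higher. The part of these cells in the AP-1 and PU.1 shares was not tested.

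Promoters of listed tissue, inflammation and metabolism genes were read next, by counts and medians. Among 13090 genes with a shared promoter region 17.9% had it stronger and 0.359% weaker, with a median log2 difference of 0.26 (0.04 without centring). Of 162 such genes on the 24 lists, 14 were stronger and none weaker, with a median of 0.24. No promoter of the 24 genes of the 4 nephron lists with a shared region passed by limma. At an unadjusted p under 0.05 there were 4 higher and 1 lower, against 37.9 and 2.2% of all 13090 genes, and by edgeR on recovered pileups 1 was higher and none lower, against 21.5 and 0.955%. The 8 AP-1 family promoters had a median of 0.22, the 13 of HNF, PPAR, RXR and ESRR factors 0.14 and the 7 of MHC class II genes 0.56, and again no member passed by limma, with 2, 3 and 4 higher and 0, 1 and 1 lower at an unadjusted p under 0.05 and 2, 0 and 4 higher by edgeR. Lists with members that passed included fatty acid oxidation (Cpt2, Etfdh, Crot; 3 of 15), cytosolic ribosomal proteins (Rpl19, Rps3, Rps6; 3 of 18) and reference genes of wide use (Ppia, Pgk1, Sdha; 3 of 10), with 1 each in the endothelial (Cdh5), ETS (Gabpa, in a region whose nearest start site is that of Atp5j) and NF-kB (Sod2) lists. All 12 genes named here lost the call without centring, where their adjusted p was 0.0892 to 0.665 (limma). Over all lists the share was 8.64%, against the 17.9% of all genes.

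The RNA of genes with a stronger promoter was compared in the kidney RNA libraries. Of 14495 genes tested by edgeR, 8.15% were higher and 3.36% lower in old kidney. Among the 2196 tested genes with a stronger promoter, 57 (2.60%) were higher and 92 (4.19%) lower, with a median log2 fold change of -0.068. Among the 12017 with any shared promoter, 5.53% were higher and 3.55% lower, with a median of -0.012. Leaving out 1 RNA library moved the 57 to between 25 (without old replicate 4) and 124 (without old replicate 2), and the 92 to between 22 (without young replicate 2) and 325 (without old replicate 2, the library with hepatocyte transcripts, whose part in these counts was not tested). The balance of higher against lower turned without young replicate 1 (38 and 35), young replicate 2 (26 and 22), old replicate 1 (44 and 37) and old replicate 4 (25 and 24), and with the replicate block (38 and 37). Without old replicate 2, 11.5% of all genes tested were higher and 12.2% lower, and 9.10 and 13.7% of those with a shared promoter. Stronger promoters with CCAATNA gave 31 higher and 40 lower of 977, and all shared promoters with CCAATNA 95 and 57 of 1857. The first balance turned in 5 of 8 fits without 1 library, which gave 14 to 63 higher and 9 to 121 lower, and with the replicate block (20 and 15). The second turned without old replicate 2 (164 and 207) and with DESeq2 (131 and 171). None of the 8 named stronger promoters had a change in RNA that passed: Cfap36 had 56.0, 50.6, 64.9 and 67.8 CPM in young and 62.1, 46.1, 67.9 and 61.3 in old libraries. Of the weaker promoters, Chgb, Rims1 and Siah3 had at most 0.638, 0.457 and 0.361 CPM in any library and were not tested. Of the immune cell lists, whose RNA was mostly higher, 1 of 12 genes had a shared promoter region in each of the macrophage, B and plasma cell and T and NK cell lists.

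A shared region can also change which of its summits is the strongest. Of 34601 regions whose strongest summits lay within 150 bp of each other in the libraries of each age, 160 (0.462%) had young and old summits at least 300 bp apart, 107 of them at promoters. The promoter of Jun, the AP-1 subunit, was 1 such region, chosen after its values were seen. Its summit at Jun had 4.87, 4.34 and 3.81 in the young libraries and 5.36, 5.60 and 7.12 in the old libraries. The summit 931 bp away, at the divergent transcript Junos, had 6.57, 6.97 and 5.79 in young and 4.08, 4.71 and 5.36 in old libraries. The Junos summit was the stronger one in every young library and the Jun summit in every old library, and the ratio of Jun to Junos, 0.74, 0.62 and 0.66 against 1.31, 1.19 and 1.33, needs no scaling between libraries.

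The liver libraries of the same series, 3 young and 3 old, gave a reference for these differences. Old liver also had a higher promoter share among its 20000 strongest peaks, 46.3 ± 1.55% against 39.7 ± 2.24% in young liver (SD, n = 3 each). The age difference in peak number, width, fold enrichment, promoter share and covered length was not shown to differ between the tissues (exact permutation within tissues, adjusted p of 0.725 to 0.940). The strength contrast of promoters with and without CCAATNA was 0.09, 0.14 and 0.07 in young and 0.50, 0.43 and 0.50 in old kidney, and -0.10, -0.01 and -0.08 in young and 0.09, -0.06 and -0.04 in old liver. The age difference was 0.38 in kidney and 0.06 in liver, and the difference between tissues of 0.32 did not pass (exact permutation p = 0.085, adjusted 0.360 over 6 contrasts). The PU.1 contrast at regions over 1 kb away differed with age by 0.20 in kidney and 0.38 in liver, and the AP-1 contrast by 0.15 and 0.09.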

How the data were processed

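Kidney of young and old C57BL/6 mice was profiled by ATAC-seq (3 libraries a group) and RNA-seq (4 a group). Per the study's methods, the authors trimmed, aligned and filtered ATAC reads in the ENCODE pipeline (Bowtie2, mm10) and called peaks with MACS2 on each library, with read ends shifted upstream and extended to 200 bp, after duplicates and reads of low mapping quality had been removed. The deposited peak files give summit fold enrichment, a ratio to the local background, with −log10 p and −log10 q, as the authors' caller wrote them. The RNA counts per gene were deposited by the authors from HISAT2 and HTSeq, counted without strand. Peak numbering ran slightly past the deposited lines, so a few called peaks are not analysed here.

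Equal intervals were taken once. Whole-number pileups and the depth were recovered from fold enrichment and p, and 100% of pileups came out within 0.05 of a whole number. Start sites came from the GENCODE mouse annotation, and motifs, GC content and printed sequences from the RefSeq copy of GRCm38. Regions were merged at 1 bp of overlap. Shared regions were tested by limma 3.58.1 on log2 fold enrichment less the median of the library, over all 45429, with no filter and no pseudocount. RNA was tested by edgeR 4.0.16 (quasi-likelihood), with DESeq2 1.42.0 as an alternative. Single values per library had exact two-sided permutation tests. The depth was 41.2 to 57.3 M read ends. Differences between tissues were tested over the 400 relabellings of age within tissue (smallest p 0.005). Methods were tested on simulated data. Named regions were the 8 stronger and 8 weaker promoters and 3 of each over 1 kb away with the smallest p, and listed genes that passed, some of which are not reported here; promoters had to pass with groups that did not overlap, and provisional gene names (Gm, Rik) and chromosome 18 were left out. Members and lists were chosen with earlier results of these data known; the CCAAT pentamer, the GC bands and the Jun summits were added after seeing the data.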

Additional observations from a re-analysis of the deposited data

Results flagged for a closer look

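The age difference in the share of peaks with the NF-Y core CCAATNA was set beside that in liver, and the difference between the tissues had an unadjusted p under 0.05 that did not pass after adjustment. At equal numbers of top peaks, the share differed with age by 1.03 percentage points in kidney and by -0.176 points in liver, where the means were 7.34 ± 0.146% in young and 7.16 ± 0.141% in old libraries (SD, n = 3 each). The difference between tissues was 1.21 points (exact permutation of age within tissue, p = 0.01, adjusted 0.05 over 5 motif cores). Over all peaks it was 1.22 points (exact permutation p = 0.01) and among the 20000 strongest peaks 3.03 points (exact permutation p = 0.0800). These cores were compared between tissues after the kidney values had been seen. Groups of 3 libraries are too small for a test of single outlying libraries.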

How the results depend on the processing

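Alternatives changed 1 choice at a time, except that pileup scaled to depth also left out the centring and edgeR on pileups changed both measure and test. Peak number, covered length, median fold enrichment, median strength in shared regions, the promoter contrast and the CCAATNA contrast kept their direction in every alternative run for them, and the CCAATNA contrast was 0.360 to 0.398 when each library was left out. Stricter peaks (−log10 q of at least 5) turned the difference in median width to 13.3 bp and that in GC content to 0.829 points, and 20000 top peaks turned the latter to 1.16 points. The range without 1 library was -0.275 to 1.0 points for promoter share and -0.498 to 0 for GC content. Placement classes that separated the groups numbered 1 of 7 over all peaks and 7 at 20000 peaks, where the intergenic share differed by -1.83 and peaks over 100 kb away by -0.267 points. Motif cores that separated the groups numbered 10 to 11 without 1 library. Weak cores turned: YY1 to -0.0115 within 50 bp (-0.00269 to 0.0129 without 1 library), TEAD to 0.0236 within 50 bp, 0.0117 at 20000 and 0.0775 over all peaks (-0.232 to 0.112 without 1 library), and TFAP2 to 0.188 at 20000 and 0.0584 over all peaks.

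Scaling decided the number of called regions. Stronger regions numbered 343 without centring, 1336 after quantile normalization, 143 with pileup scaled to depth, 4971 with centred pileups, 3357 with edgeR on pileups and 870 to 2162 without 1 library, and 8308 did not overlap between the groups. Weaker regions numbered 1715 without centring, 1685 with pileup scaled to depth, 358 to 871 without 1 library, and 3810 did not overlap. The replicate block gave 2069 stronger and 711 weaker regions. With the mean of each age subtracted in every region, same-numbered libraries correlated at -0.06, -0.042 and -0.008. Other pairs between the ages gave -0.045 to 0.084. These values showed no sign of a pairing by number, and cannot show that libraries were not prepared together. Of RNA at stronger promoters, DESeq2 called 92 higher and 266 lower (4.06 and 11.7%), against 7.70 and 9.73% of all genes with a shared promoter. The replicate block gave 38 higher and 37 lower (1.73 and 1.68%), against 3.60 and 1.44%. Leaving out 1 library gave 25 to 124 higher and 22 to 325 lower. The balance turned with the block and in 4 of the 8 fits without 1 library. Between tissues, the width difference turned to 7.67 bp over all peaks, and that of promoter share to -1.34 points at 20000 peaks (-0.586 to 0.691 without 1 library). Sod2 turned to -0.0751 with pileup scaled to depth. The causes were not tested. A test of 3 against 3 allows no exact p under 0.1.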
